A study of Homo sapiens with 8 samples.

Results

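SULT4A1, ZDHHC11, LRRC70, DCLK1, DMBT1, ACOX2, AACSP1 and MSH4 were selected on their large rise after silencing of the splicing factor SFPQ in one or both of 2 ovarian cancer cell lines. These 8 genes are among 20503 genes named on the array, and 17 of its 50599 probes carry one of their RefSeq accessions. DMBT1 rose furthest of all in SKOV3 cells, DCLK1 rose in MDAH cells and fell in SKOV3 cells, and SULT4A1, ZDHHC11 and LRRC70 were higher in both lines with either shRNA. Because the genes were chosen by this rise, it is described here without a test. The difference between the 2 shRNAs and the changes of related and neighbouring genes, which the choice did not use, were tested.

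MDAH and SKOV3 are cell lines of epithelial ovarian cancer, and their total RNA was hybridized to 8 single-colour Agilent arrays on the same slide. Per line there were 2 control samples, in which SFPQ was not silenced, and 2 silenced samples, of which 1 carried sh-SFPQ#2 and 1 carried sh-SFPQ#3. The hairpins were delivered with lentiviral vectors, and no platinum treatment is named for any sample. The sample labels name both controls of a line as control shRNA samples, whereas the methods speak of parental cells beside sh-ctrl cells, so that which control is which is not known here. The 2 silenced samples of a line carry different hairpins, so that their spread includes any difference between these, and nothing states whether the controls came from separate cultures. The p-values measure only the spread between these arrays.

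The 75th percentile of the signal intensity was 496 and 483 in the MDAH controls, 405 under sh-SFPQ#2 and 244 under sh-SFPQ#3. Among SKOV3 samples the controls had 438 and 387, with 463 under sh-SFPQ#2 and 466 under sh-SFPQ#3. Levels below are log2 signals minus this percentile of the same array, so that a level of 0 lies at the percentile, and levels of different probes cannot be set against each other. A probe was tested if both arrays of at least 1 group lay well above background, which 13 of the 17 member probes and 29021 probes in all did. Of the other 4 member probes, 1 belongs to SULT4A1, 2 to DCLK1 and 1 to DMBT1.

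SFPQ is a nuclear protein that binds RNA and DNA, forms dimers with other proteins of the DBHS family, and takes part in splicing, in transcription and in the nuclear bodies called paraspeckles. The 8 genes were not chosen as members of a pathway. SULT4A1, ZDHHC11 and ACOX2 encode enzymes, DCLK1 a microtubule-binding kinase, LRRC70 and DMBT1 proteins of the membrane and of secretions, and MSH4 a protein of meiotic recombination, while AACSP1 is a pseudogene. Several of them are best known from brain, gut or germ cells and not from ovarian epithelium.

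The silenced gene was examined first. The SFPQ signal reached 6174 and 7267 in the MDAH controls, 2211 under sh-SFPQ#2 and 1045 under sh-SFPQ#3. The SKOV3 controls reached 12530 and 9797, with 3723 under sh-SFPQ#2 and 2598 under sh-SFPQ#3. Both silenced arrays lay below both controls in each line. The log2 change was -1.50 in MDAH cells, with an adjusted p of 0.0300 by limma, and -2.01 in SKOV3 cells, with an adjusted p of 0.0220 by limma, each with a standard error of 0.24. The call was lost in limma in MDAH cells with median centring (adjusted p = 0.0579) and without a filter on dim probes (0.0608), and in SKOV3 cells without the filter (0.0593). The level under sh-SFPQ#3 lay below that under sh-SFPQ#2 by 0.44 on the log2 scale, averaged over both lines, which did not pass (log2 difference -0.44, standard error 0.17, adjusted p = 0.239 from limma).

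The labelled cell type was checked with marker genes. Of 6 epithelial markers, 5 were well above background on all 8 arrays, with KRT18, a keratin of simple epithelium, between 61812 and 113140 in signal, and their summed signal lay between 113120 and 277960. CDH1, which encodes E-cadherin, was above background on 6 arrays. PAX8, a transcription factor of ovarian and Müllerian epithelium, was above background on all 8 arrays, whereas MSLN was not above background on any and MUC16 on 2. PAX8 had log2 changes of -0.60 for MDAH and 0.50 for SKOV3, with adjusted p of 0.0943 and 0.152 by limma. MUC16, which encodes the antigen CA-125, had signals of 24.6 and 13.1 in the SKOV3 controls, 66.3 under sh-SFPQ#2 and 86.6 under sh-SFPQ#3, a log2 change of 1.90 (adjusted p = 0.0574 from limma). Of the markers of other cells, CD3E of T cells and COL3A1 and LUM of fibroblasts were above background on no array. CD79A, PTPRC and CD14 of leukocytes, CDH5 of endothelium and COL1A1 of fibroblasts were above background on all 8, and the summed signal of the 4 leukocyte markers, of which CD79A was the brightest, lay between 1403 and 3145. The summed signal of the 5 fibroblast markers, of which COL1A1 was the brightest, was 289 and 339 in the MDAH controls, 486 under sh-SFPQ#2 and 389 under sh-SFPQ#3, and 175 and 103 in the SKOV3 controls, 338 under sh-SFPQ#2 and 408 under sh-SFPQ#3. It was thus higher on the silenced arrays of both lines, as members were. COL1A1 had log2 changes of 1.14 for MDAH and 1.23 for SKOV3, with adjusted p of 0.101 and 0.104 by limma. DCN, a proteoglycan of fibroblasts, had signals of 29.3 and 26.8 in the SKOV3 controls, 131 under sh-SFPQ#2 and 103 under sh-SFPQ#3, a log2 change of 1.88 (adjusted p = 0.0927 from limma), and was above background on 4 of the 8 arrays. The part of these markers in the results below was not tested.

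The enzymes come first. SULT4A1 is a member of the cytosolic sulfotransferase family, abundant in brain, for which no substrate is established. Its measured probe A_33_P3353345, for NM_014351, had levels of -2.75 and -2.62 in the MDAH controls, -0.23 under sh-SFPQ#2 and -0.09 under sh-SFPQ#3. In SKOV3 cells the levels were -3.70 and -2.39 in the controls, -1.28 under sh-SFPQ#2 and -0.40 under sh-SFPQ#3. Both silenced arrays lay above both controls in each line, and in SKOV3 cells the controls lay 1.31 apart, farther than the 1.12 between control 2 and sh-SFPQ#2. The mean rose from -2.68 ± 0.09 to -0.16 ± 0.10 in MDAH cells (SD, n = 2 arrays each), a log2 difference of 2.53, and from -3.04 ± 0.92 to -0.84 ± 0.62 in SKOV3 cells (SD, n = 2), a difference of 2.21. Its other probe, A_33_P3280367, was not well above background on any array and gives no second reading of the gene. RNA was taken from whole cultures, in which a rise within every cell and a larger share of expressing cells cannot be told apart.

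ZDHHC11 belongs to the membrane enzymes with a DHHC motif that attach palmitate to cysteines of other proteins. It was the only one of the 8 genes with 4 tested probes, all for NM_024786. On the brightest, A_33_P3344204, the levels were 2.23 and 2.51 in the MDAH controls, 3.50 under sh-SFPQ#2 and 4.26 under sh-SFPQ#3. In SKOV3 cells they were 0.84 and 2.12 in the controls, 3.66 under sh-SFPQ#2 and 4.72 under sh-SFPQ#3. The silenced arrays were the higher ones in both lines without overlap, and in SKOV3 cells control 2 stood apart from control 1. The means differed by 1.51 in MDAH and by 2.71 in SKOV3 cells. On A_24_P153456 it was 1.38 and 2.65, and on A_21_P0012878 it was 1.55 and 2.92, in the same order of lines, with control 1 of SKOV3 cells not above background on the latter probe. On the dimmest, A_33_P3344209, the rise in MDAH cells was 1.11 with 1 array of each group above background, and in SKOV3 cells neither control was above background, so that the silenced cells were at least 1.38-fold higher. For such a bound the dim level of each array was replaced by the lowest level that any probe well above background had there, unless its own was higher, and the group means were then compared. Over the 8 arrays the levels of the 4 probes followed each other closely, with Pearson r between 0.965 and 0.999 for the 6 pairs, as a description of probes that share their arrays and their transcript.

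ACOX2 is the peroxisomal oxidase that acts on branched-chain fatty acids and on bile acid intermediates. Its probe A_23_P10182 is spotted 10 times on each array, where the other member probes have 1 spot. The levels were -3.81 and -3.02 in the MDAH controls, -0.79 under sh-SFPQ#2 and -0.25 under sh-SFPQ#3. In SKOV3 cells they were -0.98 and 0.07 in the controls, -0.12 under sh-SFPQ#2 and 0.04 under sh-SFPQ#3. The MDAH groups were separate, and in SKOV3 cells both silenced arrays lay between the 2 controls. The difference of the means was 2.90 in MDAH cells, from -3.42 ± 0.56 to -0.52 ± 0.38 (SD, n = 2), and 0.41 in SKOV3 cells, where the controls had an SD of 0.74 (n = 2).

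DCLK1 is a kinase with doublecortin domains that binds microtubules, known from migrating neurons and from tuft cells of the gut. Its 4 probes carry 2 accessions. On A_21_P0000129, for NM_001195430, the levels were -2.98 and -2.69 in the MDAH controls, 0.28 under sh-SFPQ#2 and 1.81 under sh-SFPQ#3. In SKOV3 cells they were -1.94 and -2.04 in the controls, -2.59 under sh-SFPQ#2 and -3.57 under sh-SFPQ#3. In MDAH cells both silenced arrays were the high ones, and in SKOV3 cells they were the low ones, without overlap in either. The differences of the means were 3.88 in MDAH cells, a 14.7-fold rise that ranked 3 among the 29021 probes tested, and -1.09 in SKOV3 cells. On A_23_P369994, for NM_004734, the levels rose from -1.78 ± 0.15 to -0.20 ± 0.70 in MDAH cells (SD, n = 2), a difference of 1.58. In SKOV3 cells that probe was at -2.61 and -2.96 in the controls and not above background on either silenced array, so that the silenced cells were at least 2.54-fold lower. Both measured probes moved up in MDAH cells and down in SKOV3 cells with each shRNA, and the size of the MDAH rise differed between them. The remaining probes, A_33_P3302777 and A_32_P108889, also for NM_004734, were above background on 1 array and on none, and no change is read from them.

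LRRC70 encodes a membrane protein with leucine-rich repeats and lies within the interval of IPO11, an import receptor gene of the same strand, in the RefSeq annotation. Its only probe, A_23_P41664, for NM_181506, had levels of -2.21 and -2.20 in the MDAH controls, -0.82 under sh-SFPQ#2 and -0.19 under sh-SFPQ#3. In SKOV3 cells they were -2.51 and -2.45 in the controls, -0.97 under sh-SFPQ#2 and 0.01 under sh-SFPQ#3. The controls agreed closely in both lines, and every silenced array lay above them. The differences of the means were 1.70 in MDAH and 2.0 in SKOV3 cells, with an SD of at most 0.04 among controls and of 0.45 and 0.69 among silenced arrays (n = 2 each).

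DMBT1 encodes a secreted glycoprotein of mucosal surfaces with scavenger receptor cysteine-rich domains. On A_23_P86599, for NM_007329, the levels in SKOV3 cells were -2.96 and -1.39 in the controls, 1.82 under sh-SFPQ#2 and 2.89 under sh-SFPQ#3. The MDAH levels, between -5.56 and -5.20, were not well above background on any of the 4 arrays. The rise was thus measured in SKOV3 cells alone, from -2.17 ± 1.11 to 2.35 ± 0.76 (SD, n = 2), a difference of 4.53 or 23.0-fold that ranked 1 among the probes tested, and of 3.46 with normexp, its offset and quantile normalization. Set against each control apart it ranged from 3.20, for sh-SFPQ#2 against control 2, to 5.85, for sh-SFPQ#3 against control 1. On the other probe, A_33_P3300312, the SKOV3 controls were not above background and 1 of the 2 silenced arrays was, so that no size of the change is given.

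MSH4 is a MutS homolog that acts with MSH5 at meiotic crossovers. Its probe A_23_P74068, for NM_002440, had levels of -3.98 and -4.10 in the MDAH controls, -1.74 under sh-SFPQ#2 and -1.06 under sh-SFPQ#3. In SKOV3 cells the levels lay between -5.91 and -3.78 and were not above background on any array. The MDAH groups were separate, with a rise from -4.04 ± 0.08 to -1.40 ± 0.48 (SD, n = 2), a difference of 2.64.

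AACSP1 is a pseudogene of AACS, which encodes acetoacetyl-CoA synthetase. It mirrored MSH4 in the lines in which it could be measured. On A_33_P3302290, for NR_024035, the SKOV3 levels were 0.80 and 0.56 in the controls, 1.93 under sh-SFPQ#2 and 2.43 under sh-SFPQ#3, and on A_21_P0012937 they were -3.40 and -3.42, then -2.46 and -2.21. Neither probe was above background on any MDAH array. Both probes were higher on both silenced SKOV3 arrays, with differences of the means of 1.50 and 1.08.

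**Figure D1:**
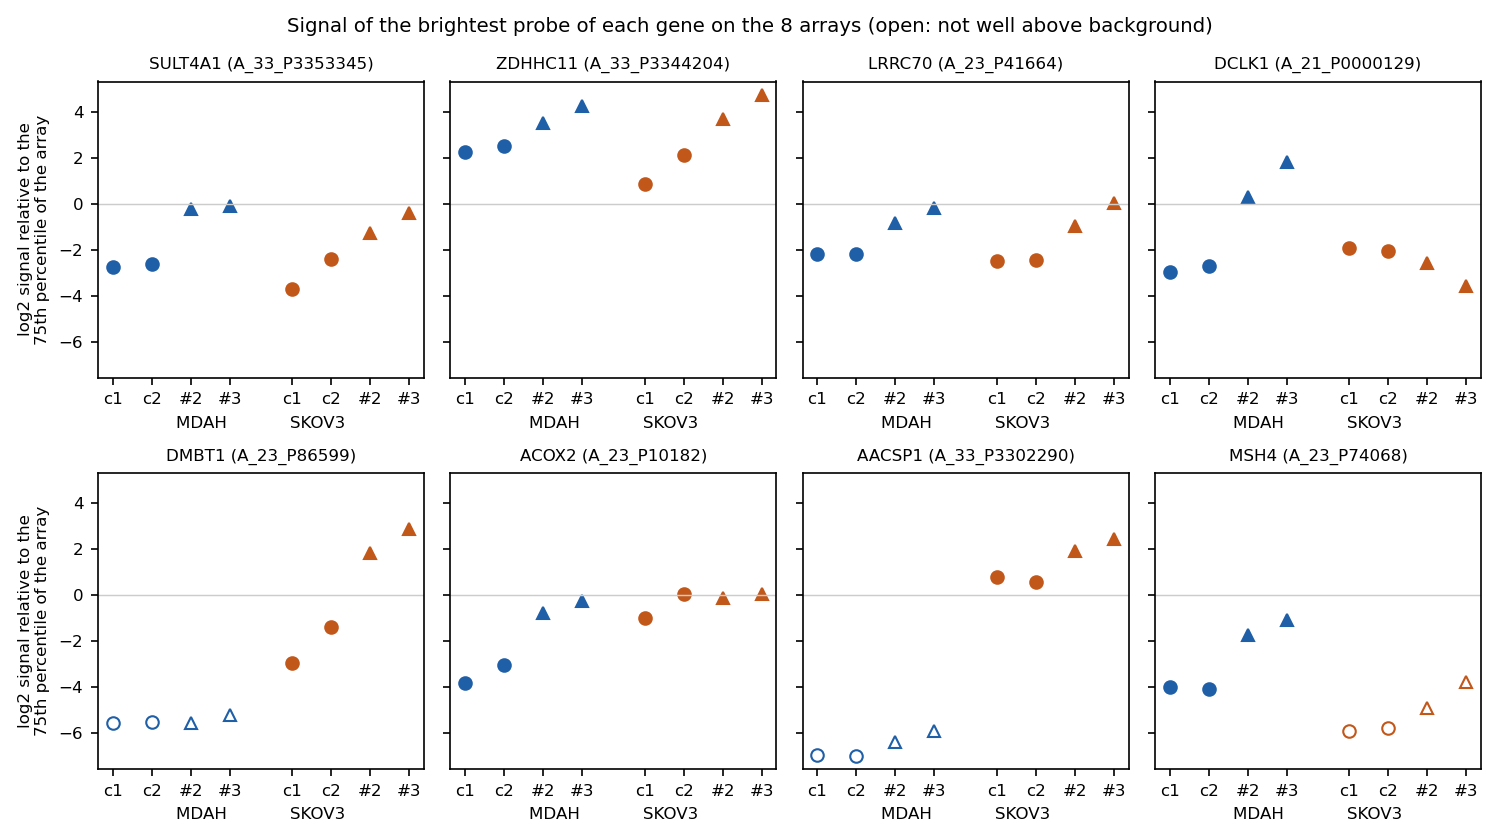
Level of the brightest probe of each gene (log2 scale, 0 at the 75th percentile of its array, vertical axis) on the 4 MDAH arrays (blue) and the 4 SKOV3 arrays (orange); circles are control 1 and control 2, triangles sh-SFPQ#2 and sh-SFPQ#3, and open symbols were not well above background. DCLK1 runs up in MDAH and down in SKOV3 cells, DMBT1 and AACSP1 have filled symbols in SKOV3 cells alone and MSH4 in MDAH cells alone; heights are not comparable between panels.

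Counted over the tested probes, 12 of the 13 member probes had both silenced arrays above both controls in MDAH cells, where 31.5% of all probes tested did. In SKOV3 cells it was 10 of 13, against 25.7% of all probes, and in both lines 9 of 13, against 11.3%. Of the 6 member probes above background on all 8 arrays it was 6 in MDAH cells, against 36.2% of all such probes, and 4 in SKOV3 cells, against 26.7%. The genes were chosen by this same comparison, and a probe could enter through its silenced arrays alone, so these counts only describe the choice. The 9 probes belong to SULT4A1, ZDHHC11, LRRC70, AACSP1 and MSH4, and for AACSP1 in MDAH cells and MSH4 in SKOV3 cells they rest on levels that were not above background.

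The size of the rise depended on the signal used. With normexp correction, its offset of 50 and quantile normalization applied together, DCLK1 on A_21_P0000129 rose by 2.90 in MDAH cells in place of 3.88, ACOX2 by 1.73 in place of 2.90, and MSH4 by 1.15 in place of 2.64. SULT4A1 rose by 1.73 in MDAH and 1.29 in SKOV3 cells, and LRRC70 by 1.20 and 1.35. Among the ZDHHC11 probes A_21_P0012878 rose by 0.83 and 1.55, while A_33_P3344204, the brightest, still rose by 1.35 and 2.71. The dimmest, A_33_P3344209, rose by 0.34 in MDAH cells in place of 1.11. Its rise was smaller in SKOV3 cells too, where neither control was above background. AACSP1 in SKOV3 cells rose by 1.39 on A_33_P3302290 and by 0.56 on A_21_P0012937. All of these kept their direction. The SKOV3 change of DCLK1 on A_21_P0000129 was -0.60 in place of -1.09. On A_23_P369994 the SKOV3 change came to -0.58, with neither silenced array above background. That is smaller than the bound of at least 2.54-fold given above, which holds only for signals scaled to the 75th percentile.

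**Figure D2:**
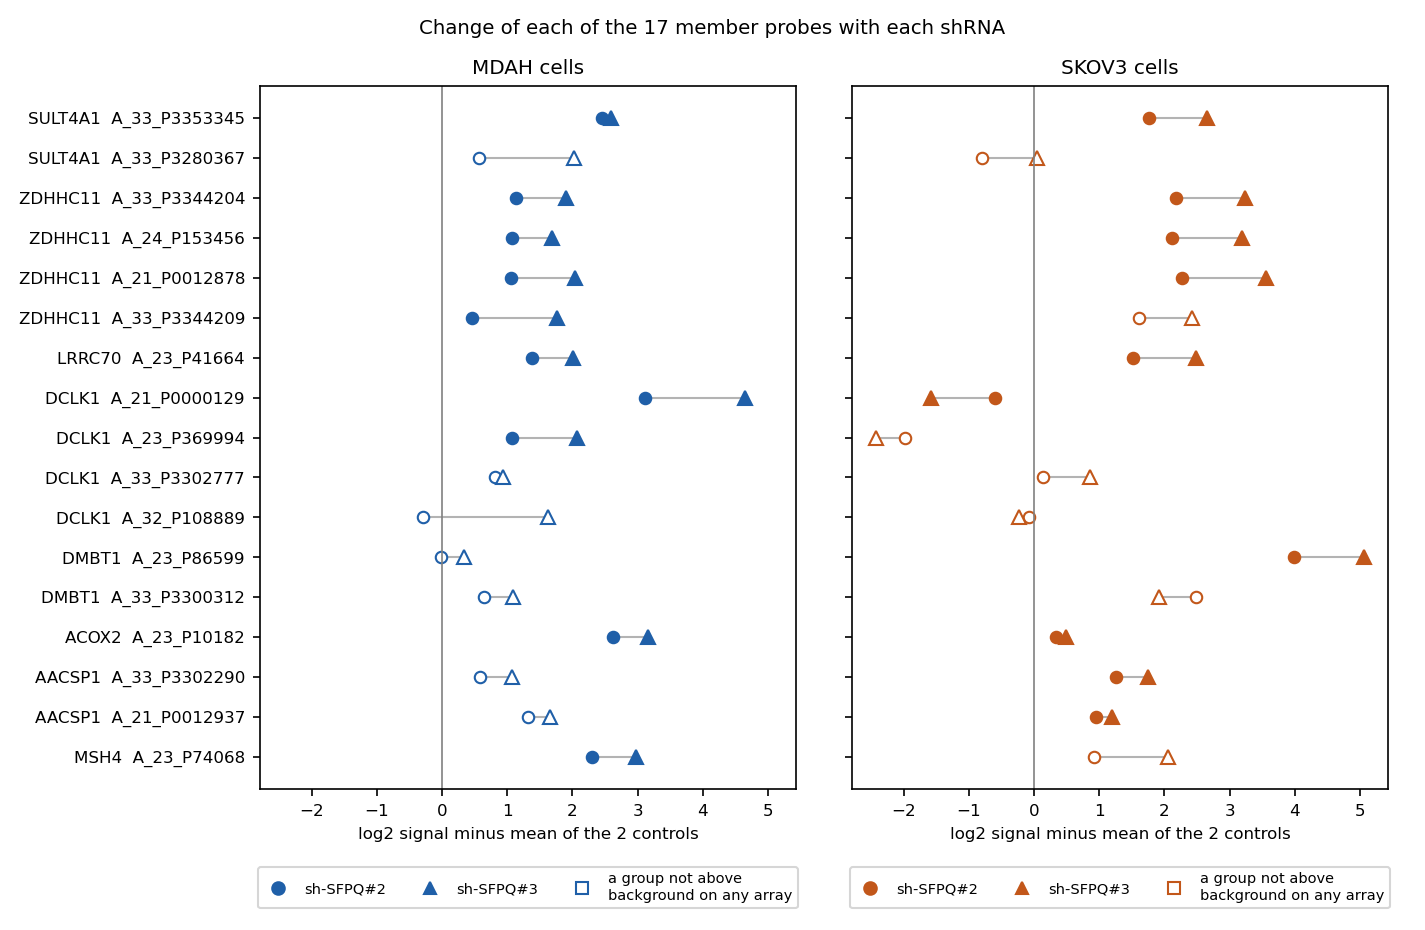
Level under sh-SFPQ#2 (circles) and sh-SFPQ#3 (triangles) minus the mean of the 2 controls of the line (log2, horizontal axis) for each of the 17 member probes, MDAH cells left and SKOV3 cells right; open symbols mark probes with a group not above background on any array. The 4 ZDHHC11 probes lie together, and the 2 measured DCLK1 probes lie right of 0 in MDAH cells and left of 0 in SKOV3 cells.

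Whether the 2 shRNAs differed in the size of the rise was a question that the choice of the genes had not used. In the limma fit of all 8 arrays, with a term for the shRNA number across both lines, none of the 13 member probes passed an adjusted p of 0.05, where 2.15% of all probes did, 243 of them higher and 380 lower under sh-SFPQ#3. At an unadjusted p under 0.05, 3 member probes passed, as did 19.3% of all probes. The nearest were LRRC70 and MSH4. LRRC70 was higher under sh-SFPQ#3 by 0.63 in MDAH and 0.97 in SKOV3 cells, on average 0.80 (standard error 0.15, 95% interval 0.43 to 1.17, adjusted p = 0.0630 from limma). MSH4 was higher by 0.68 in MDAH cells. Its average over both lines was 0.91 (standard error 0.17, 95% interval 0.48 to 1.33, adjusted p = 0.0636 from limma), but takes in SKOV3 levels not above background. The third was AACSP1 on A_33_P3302290, with 0.50 (95% interval 0.13 to 0.87, adjusted p = 0.158 from limma), an average that takes in MDAH levels not above background. The MDAH differences rest on scaling to the lower percentile of the sh-SFPQ#3 array, since the signals before scaling were 229 under sh-SFPQ#2 and 213 under sh-SFPQ#3 for LRRC70, 121 and 117 for MSH4, and 4.83 and 4.10 for AACSP1. The call for LRRC70 depends on the processing. It passed with normexp, its offset and quantile normalization together (adjusted p = 0.0321 from limma), with the filter for all 8 arrays (adjusted p = 0.0175 from limma) and with an intensity trend in the prior (adjusted p = 0.0458 from limma). Over the alternatives tried, its adjusted p ranged from 0.0175 to 0.191.

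The 3 brighter ZDHHC11 probes were higher under sh-SFPQ#3 by 0.84 to 1.14 on average, with intervals that all included 0 and adjusted p between 0.269 and 0.321 from limma. The dimmest, A_33_P3344209, passed the filter through the silenced SKOV3 arrays alone. For SULT4A1 the difference was 0.51 (95% interval -0.56 to 1.58), for DMBT1, with MDAH levels not above background, 0.71 (-0.52 to 1.95) and for ACOX2 0.35 (-0.67 to 1.37), so that differences of over 1 in favour of sh-SFPQ#3 lie within each interval. For DCLK1 the shRNAs went opposite ways in the lines, since sh-SFPQ#3 lay 1.53 above sh-SFPQ#2 in MDAH cells and 0.98 below it in SKOV3 cells on A_21_P0000129, and the average of 0.27 (-1.07 to 1.62) says little about either. SFPQ itself was lower under sh-SFPQ#3 in both lines, and its part in these differences was not tested.

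The controls of SKOV3 cells differed in some of the same genes. Control 2 was above control 1 by 1.31 for SULT4A1, by 1.27 and 1.20 for ZDHHC11 on A_33_P3344204 and A_24_P153456, by 1.57 for DMBT1 and by 1.05 for ACOX2, where the difference of all probes had an SD of 0.47. On the other ZDHHC11 probes control 1 (A_21_P0012878) or both controls (A_33_P3344209) were not above background, and no difference is given. For LRRC70, AACSP1 and the 2 measured DCLK1 probes the controls of SKOV3 cells differed by at most 0.35. In MDAH cells, where the SD of all probes was 0.34, ACOX2 differed by 0.79 and the 3 brighter ZDHHC11 probes by 0.22 to 0.35, while A_33_P3344209 differed by 0.73 with 1 of the 2 controls above background. With the control number as a term across both lines, a comparison added after these values had been seen, no member probe passed, and 0% of all probes did (adjusted p = 1.0 from limma for each member probe; 1028 probes had an unadjusted p under 0.05). Among the members the averages were 0.92 for ACOX2 (95% interval 0.45 to 1.39), 0.78 and 0.77 for ZDHHC11 on A_33_P3344204 and A_24_P153456, and 0.72 for SULT4A1. Whether this follows from the parental and sh-ctrl origin of the controls cannot be told apart from other differences between single arrays. Against the higher control alone, SKOV3 cells under sh-SFPQ#2 were still above it by 1.12 for SULT4A1, by 1.55 for ZDHHC11 on A_33_P3344204 and by 3.20 for DMBT1, while ACOX2 lay below it under both shRNAs, by a log2 difference of -0.19 under sh-SFPQ#2 and -0.029 under sh-SFPQ#3.

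**Figure D3:**
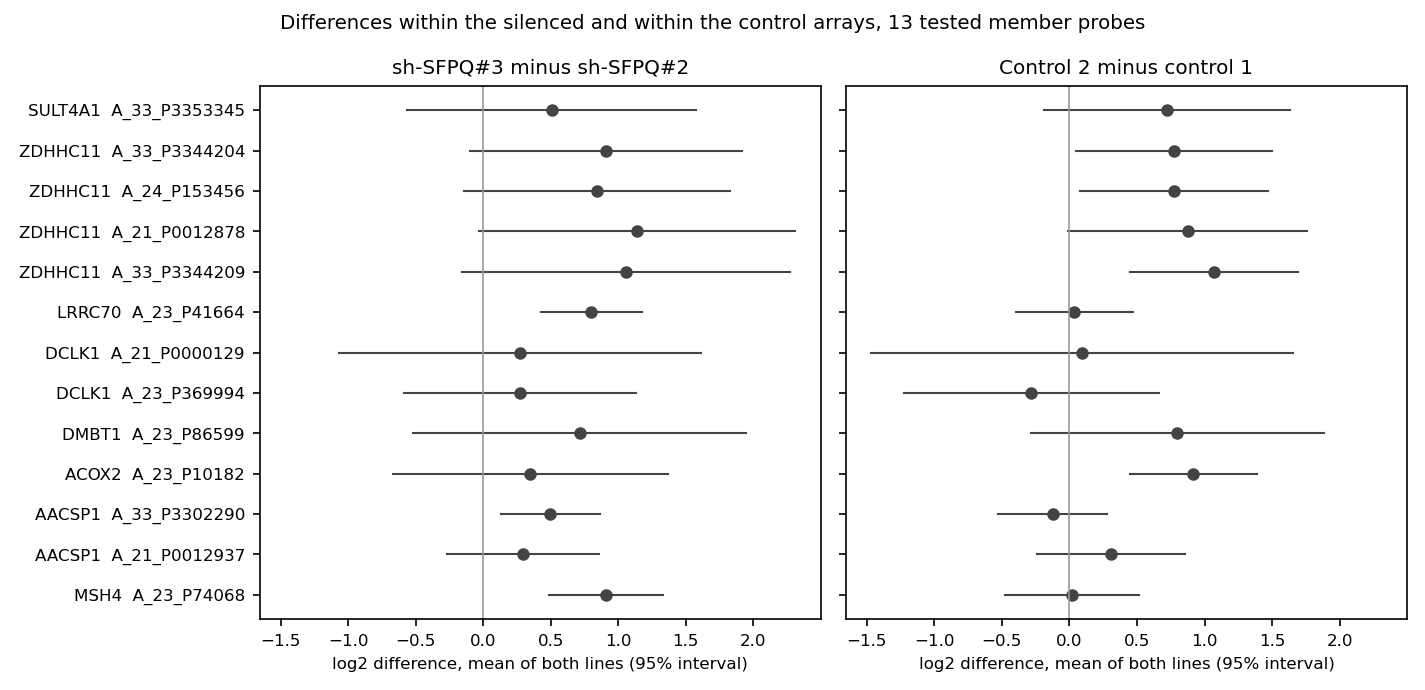
Log2 difference of sh-SFPQ#3 minus sh-SFPQ#2 (left) and of control 2 minus control 1 (right), averaged over both lines, for the 13 tested member probes, with unadjusted 95% intervals from limma. LRRC70, MSH4 and AACSP1 on A_33_P3302290 have intervals above 0 on the left, and ACOX2 and ZDHHC11 on A_33_P3344204 and A_24_P153456 on the right. The interval of A_33_P3344209 is not read. That probe entered through the silenced SKOV3 arrays alone, and 3 of its 4 control arrays were not above background. AACSP1 and DMBT1 were not above background in MDAH cells nor MSH4 in SKOV3 cells, and no probe passed after adjustment.

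The relatives of the members, as the term is used here, were listed by gene family, parent gene, overlap or shared pathway. They were not listed for how they moved, and IPO11 also stands among the neighbours below. Of 123 listed genes 118 were on the array and 90 were tested. In MDAH cells 1 of the 90 passed, a lower one, where 2.69% of all probes passed, 169 higher and 611 lower. The relative that fell was DCDC2, a doublecortin domain protein of primary cilia and thus a relative of DCLK1, at 9126 and 7345 in the MDAH controls, 3189 under sh-SFPQ#2 and 1828 under sh-SFPQ#3 in signal. It fell by 1.12 on the log2 scale, with a standard error of 0.18 and an adjusted p of 0.0320 by limma, from 4.06 ± 0.19 to 2.94 ± 0.05 (SD, n = 2). It did not pass in limma with each array centred on its median (adjusted p = 0.0510) or without a filter on dim probes (adjusted p = 0.0655). Nor did it pass without MDAH control 1, MDAH control 2, MDAH sh-SFPQ#3 or either SKOV3 control. Each of those fits left 1 array in a group, and fewer of all probes passed in MDAH cells. The log2 change of DCDC2 in them lay between -1.26 and -0.99.

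In SKOV3 cells none of the 90 relatives passed, where 1.3% of all probes did, 150 higher and 228 lower, and for the difference of silencing between the lines none passed either, where 0.145% of all probes did. At an unadjusted p under 0.05, limma gave 19 relatives in MDAH cells (21.1%, beside 21.5% of all probes), 16 in SKOV3 cells (17.8%, beside 18.6%) and 7 for the difference between lines (7.78%, beside 13.9%). The median log2 change of the 90 was -0.13 in MDAH and -0.03 in SKOV3 cells, beside 0.07 and -0.03 over all probes tested. The farthest from 0 did not pass and are named after their values were seen. ZDHHC14, a palmitoyltransferase, had signals of 1076 and 1109 in the MDAH controls, 158 under sh-SFPQ#2 and 20.1 under sh-SFPQ#3, and of 1228 and 1235 in the SKOV3 controls, then 412 and 64.6. MSR1, a macrophage scavenger receptor, had 850 and 625 in the SKOV3 controls, 112 under sh-SFPQ#2 and 21.3 under sh-SFPQ#3. Both genes were lower on every silenced array, and further so under sh-SFPQ#3, which widened the spread within the silenced groups. Under sh-SFPQ#3 MSR1 was not above background in either line, nor ZDHHC14 in MDAH cells, so the changes rest in part on dim signals. Their log2 changes in SKOV3 cells were -3.09 for ZDHHC14, with an adjusted p of 0.164 by limma, and -4.07 for MSR1, with 0.0884. The same 2 hairpins were used in both lines, and with the control and shRNA numbers as a block 5 relatives passed in MDAH cells, as did 5.15% of all probes, and 5 in SKOV3 cells, as did 3.77% of all probes, with ZDHHC14 and MSR1 in both, each with an adjusted p of 0.00806 for MDAH and 0.0109 for SKOV3 by limma.

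By family, 9 of the 20 tested palmitoyltransferases related to ZDHHC11 had a positive change in MDAH cells and 8 in SKOV3 cells, with none passing. ZDHHC18 passed as higher in MDAH cells under 2 alternatives, with median centring (log2 change 0.92, adjusted p = 0.0494 from limma) and with normexp (0.71, adjusted p = 0.0374). ZDHHC11B, the near copy of ZDHHC11, had no named probe on the array, and any binding of its RNA by the ZDHHC11 probes cannot be told apart here. Of the 4 tested cytosolic sulfotransferases 1 had a positive change in MDAH cells and 2 had one in SKOV3 cells, and of the 11 scavenger receptor cysteine-rich genes 3 and 6. Among 21 genes of peroxisomal oxidation and of bile acid side chains, the medians were 0.01 in MDAH and 0.00 in SKOV3 cells. The 14 meiotic recombination genes had medians of -0.26 and -0.06, and the 8 mismatch repair and MutS or MutL homologs 0.01 and 0.04. IPO11, which encloses LRRC70, had a log2 change of 0.07 in MDAH cells, where limma gave an adjusted p of 0.886, and of -0.49 in SKOV3 cells, where it gave 0.295, each with a standard error of 0.22. AACS, the parent gene of AACSP1, had changes of 0.42 in MDAH cells, with an adjusted p of 0.386 by limma, and of 0.44 in SKOV3 cells, with 0.401, each with a standard error of 0.26.

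The 3 genes with a probe listed next on either side of each member, 48 genes in all, were examined next, and 37 of them were tested. They were taken in order of annotated start on the chromosome, without a limit on distance or a check of the listed positions. In MDAH cells 3 passed, all lower, which is 8.11% of them beside the 2.69% of all probes. RNF180, a membrane-bound ubiquitin ligase gene 2 genes above LRRC70 in this order, was above background in both controls and on neither silenced array, at least 1.32-fold lower. Its adjusted p of 0.00676 from limma belongs to the change computed with those dim silenced signals and not to this bound. ST6GALNAC3 and ST6GALNAC5, sialyltransferase genes above MSH4, fell as well, ST6GALNAC3 with a log2 change of -3.38, a standard error of 0.59 and an adjusted p of 0.0377 by limma, and ST6GALNAC5 with -1.59, a standard error of 0.25 and an adjusted p of 0.0277. For each of these, 1 of the 2 silenced arrays was above background. The signal of ST6GALNAC3 was 427 and 464 in the MDAH controls, 69.5 under sh-SFPQ#2 and 10.8 under sh-SFPQ#3, while MSH4 beside it rose on the same arrays. Without MDAH control 1 all 3 lost the call, in a fit that left 1 MDAH control and in which few probes passed at all. The log2 changes there were -3.47 for ST6GALNAC3 and -1.43 for ST6GALNAC5. Without MDAH control 2, where few probes passed as well, ST6GALNAC3 and ST6GALNAC5 lost the call at changes of -3.30 and -1.74. RNF180 kept its call in that fit. RNF180 also lost the call in limma with normexp (adjusted p = 0.0547), and ST6GALNAC5 without a filter (0.0582) and without MDAH sh-SFPQ#3 (0.113). ST6GALNAC3 lost it in limma with quantile normalization (adjusted p = 0.0583), median centring (0.0512), the deposited values (0.0586), no filter (0.0648) and the block (0.0544), and without any one of the SKOV3 arrays (0.0516 to 0.0667).

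In SKOV3 cells and for the difference between lines none of the 37 neighbours passed, where 1.3% and 0.145% of all probes did, and with the block 1 did in SKOV3 cells (NBEA, adjusted p = 0.0149 from limma), where 3.77% of all probes did. In MDAH cells 4 passed with the block, beside 5.15% of all probes, RNF180 and ST6GALNAC5 and also NBEA (adjusted p = 0.00999 from limma) and HTRA1 (adjusted p = 0.0483), all lower. At an unadjusted p under 0.05, limma gave 12 neighbours in MDAH cells (32.4%, beside 21.5% of all probes), 8 in SKOV3 cells (21.6%, beside 18.6%) and 10 for the difference (27%, beside 13.9%). Their median log2 change was 0.11 in MDAH and 0.02 in SKOV3 cells, beside 0.07 and -0.03 over all probes. In this fit no neighbour was called higher in either line, while without MDAH sh-SFPQ#2 RFC3, a neighbour of DCLK1, was called higher in MDAH cells (log2 change 1.1, adjusted p = 0.0408 from limma). With normexp the MDAH changes were smaller, at -1.87 for ST6GALNAC3 and -0.69 for ST6GALNAC5. That of ST6GALNAC3 was -4.36 without sh-SFPQ#2 and -2.41 without sh-SFPQ#3. For RNF180, with neither silenced array above background, no size beyond the bound above is given.

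**Figure D4:**
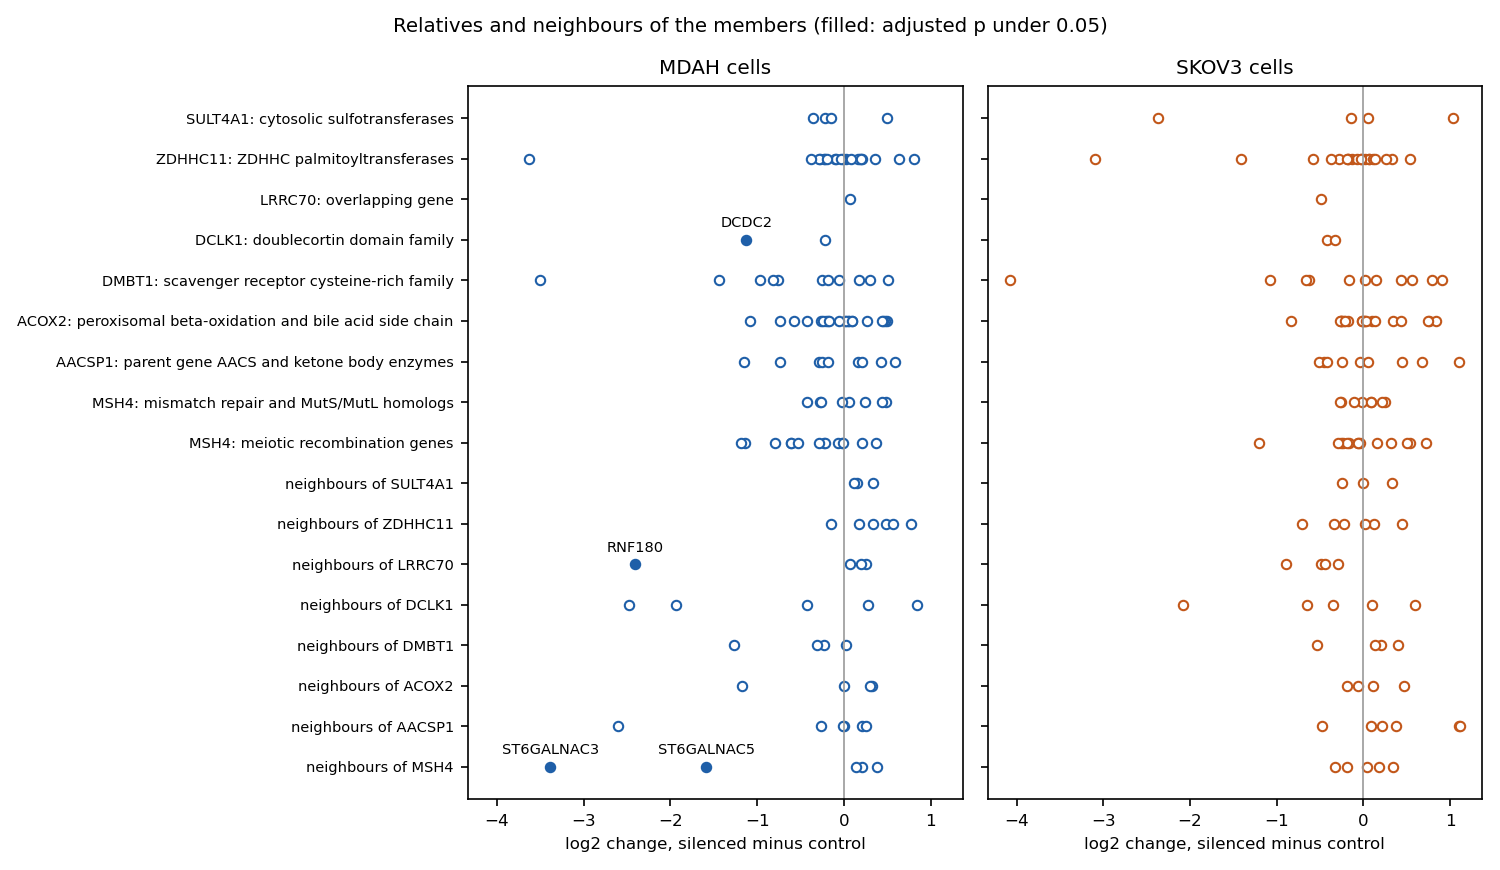
Log2 change on silencing (horizontal axis) of each tested relative and each tested neighbour, one row per family or per member, MDAH cells left and SKOV3 cells right; filled points have an adjusted p under 0.05 from limma. Of the filled points, DCDC2 is among the relatives and RNF180, ST6GALNAC3 and ST6GALNAC5 among the neighbours, all left of 0 in MDAH cells, and SKOV3 cells have none.

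The genes with the most similar levels over the 8 arrays were found by Pearson correlation among tested probes, as a description in which all points share their arrays. ZDHHC11 was followed most closely by SEPTIN14P20 (r = 0.982), COL16A1 (0.975) and ENTPD6 (0.973), and SULT4A1 by IQCH (0.982), RUNX1 (0.978) and METTL15 (0.977). For LRRC70 they were EIF2S2 (0.992), KCNJ13 (0.989) and RAD54B (0.985), and for MSH4 LETMD1 (0.994), RTL5 (0.990) and PIKFYVE (0.988). DCLK1 on A_21_P0000129 was followed by ZSCAN2 (0.984), DDX21 (0.982) and TMEM69 (0.980), and ACOX2 by GTF2E1 (0.994), GOLGA7 (0.992) and WSCD2 (0.989). The genes nearest to DMBT1 were SLC2A5 (0.992), PANX2 (0.992) and PPP1R3B (0.988), and among those nearest to AACSP1 were DSG2 and TNK2 (each 0.999), for which the gap between the lines makes up most of the range. The levels of DMBT1 and AACSP1 in MDAH cells and of MSH4 in SKOV3 cells enter here although they were not above background. Among the members, SULT4A1, ZDHHC11 and LRRC70 followed each other (r between 0.936 and 0.948). DMBT1 and AACSP1 did so with r = 0.914, and the remaining pairs of members were lower. The members were chosen for their rise on these arrays, so that genes rising on the same silenced arrays follow each other by that choice.

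Of the 8 genes, 5 have a start site in the RefSeq promoter table of GRCh38.p14, with 7 starts in all, of which 3 belong to DCLK1. The 150 bases before the start are shown for ZDHHC11, LRRC70, MSH4 and DMBT1, which have a single annotated start each, and for the start of ZDHHC11B, since the near copy is not measured apart. Capitals mark CG and TATAAA, the latter also as TTTATA where it lies on the other strand, and each runs 5′ to 3′ on the strand of its gene.
ZDHHC11, chr5:850987-851136, minus strand: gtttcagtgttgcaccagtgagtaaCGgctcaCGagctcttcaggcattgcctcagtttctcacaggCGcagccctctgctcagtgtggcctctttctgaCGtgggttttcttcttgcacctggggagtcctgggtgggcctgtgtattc
ZDHHC11B, chr5:784730-784879, minus strand: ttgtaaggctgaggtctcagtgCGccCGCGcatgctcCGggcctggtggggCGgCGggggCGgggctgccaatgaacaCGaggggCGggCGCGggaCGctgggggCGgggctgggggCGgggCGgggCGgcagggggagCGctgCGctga
LRRC70, chr5:62578669-62578818, plus strand: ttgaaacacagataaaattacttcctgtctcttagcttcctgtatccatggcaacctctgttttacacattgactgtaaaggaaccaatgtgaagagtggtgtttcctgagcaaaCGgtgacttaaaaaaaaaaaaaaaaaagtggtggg
MSH4, chr1:75796732-75796881, plus strand: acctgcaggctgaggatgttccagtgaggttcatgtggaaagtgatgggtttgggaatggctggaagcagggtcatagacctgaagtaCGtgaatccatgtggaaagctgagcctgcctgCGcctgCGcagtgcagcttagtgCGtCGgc
DMBT1, chr10:122560604-122560753, plus strand: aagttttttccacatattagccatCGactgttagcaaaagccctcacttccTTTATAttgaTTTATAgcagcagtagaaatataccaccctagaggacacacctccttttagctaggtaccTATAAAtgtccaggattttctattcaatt

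In the 250 bases before the start, CG occurs 5 times for ZDHHC11, 2 times for LRRC70, 3 times for DMBT1 and 6 times for MSH4, beside a median of 11 over 35114 promoters. CG occurs as few times or fewer in 38.1%, 22.9%, 29.3% and 41.1% of all promoters, in the same order of genes. For ZDHHC11B it occurs 32 times, so that the annotated starts of the 2 copies differ in this respect. TATAAA, searched on both strands, occurs in 10.72% of all promoters in that window and for DMBT1 and LRRC70 among the members. In DMBT1 it begins 29 bases before the start on the strand of the gene, and 2 further matches on the other strand begin 99 and 89 bases before it, while in LRRC70 the only match is on the other strand, outside the bases shown. The 3 annotated DCLK1 starts hold 2, 22 and 5 CG, and which of them gave rise to the RNA measured by each probe is not known here. These matches describe the annotated sequence and no binding was measured.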

How the data were processed

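Total RNA of each sample, 0.1 ug, was labelled with Cy3 and hybridized to a single-colour Agilent array. Per the file headers, the deposited signal intensity had been background-subtracted by Feature Extraction (11.5.1.1 in the headers, 10.7.3.1 in the submitters' processing notes). The deposited values on the log2 scale, whose normalization by the authors is not given in the sources used here, served as an alternative and followed the quantile-normalized log2 signals, centred per probe on the median over the 8 arrays, with r of 1.0 after rounding on every array (medians -0.027 and -0.032 in the MDAH controls, -0.0044 and 0.0044 under the shRNAs, 0.0084 and 0.012 in the SKOV3 controls, 0.013 and -0.010 under the shRNAs). The 62976 spots of an array held 50599 probes that were not controls, of which 28174 were named by RefSeq accession. Spots marked as outliers, 209 to 310 per array, were left out, and none was saturated.

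Log2 intensities minus the 75th percentile of the array were fitted by group (line by silencing) with limma 3.58.1 in R 4.3.3 (version 1.17.8 of data.table for reading), on 29021 probes, with Benjamini-Hochberg adjustment and a threshold of 0.05. The residual degrees of freedom were 4 for silencing, 3 with the shRNA number and 2 with the control number as well, before the prior's were added. A gene in a list was represented by its brightest probe. The fits were tested on simulated data, of which no outcome is reported here. Alternatives were other normalizations, the filter, an intensity trend, the number as a block, gene means, leaving out each array, and the methods' t-test. Another was normexp with an offset of 50 together with quantile normalization, called normexp throughout.

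The members and the lists were chosen with earlier results of these data known. Genes named were SFPQ, the members, every relative or neighbour that passed, ZDHHC11B, IPO11 and AACS, and for each member the 3 most similar genes, of which 1 is not reported here. ZDHHC14, MSR1, ZDHHC18, NBEA, HTRA1 and RFC3 were added after their values had been seen. Precision is limited by the number of arrays, 2 per group.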

Additional observations from a re-analysis of the deposited data

Results flagged for a closer look

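The 2 measured probes of DCLK1 moved opposite ways in the lines. On A_21_P0000129 the effect of silencing in MDAH cells exceeded that in SKOV3 cells by 4.97 on the log2 scale, and on A_23_P369994 by 3.77 as measured, with both shRNAs above both controls in MDAH cells and below both in SKOV3 cells. This difference between lines was not tested, since the gene was chosen by the rise in MDAH cells. On the second probe the silenced SKOV3 arrays were not above background, so that the difference there is at least 2.92. That bound holds only for signals scaled to the percentile of each array. With normexp the changes on A_23_P369994 were 1.24 in MDAH and -0.58 in SKOV3 cells, which lie closer together than the bound.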

How the results depend on the processing

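The rise of the members was recomputed for each probe and line, 34 values under 5 settings that kept all arrays. These settings were not independent of each other. Keeping outlier spots could hardly move the members, since no member probe had lost an array to outliers, and all 34 values stayed within the spread between replicates. The deposited values followed the quantile-normalized signals closely, and with either of them 28 values stayed within that spread and 6 did not. Of 170 recomputed values 134 moved by less than the spread between replicates, 35 moved by more, 21 of them with normexp, and 1 was counted as a change of sign. That was DCLK1 on A_32_P108889 in SKOV3 cells, 0.034 with normexp, a probe above background on no array. SULT4A1 on A_33_P3280367 in SKOV3 cells also changed sign, from -0.38 to 0.091 with normexp, but stands among the 134 since it moved by less than the spread. That probe was not above background on any array either. With the filter for all 8 arrays, under which fewer probes entered, 6 of 6 member probes (MDAH) and 4 of 6 (SKOV3) had both silenced arrays above both controls, beside 36.2% and 26.7% of all probes.

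SFPQ lost its call in MDAH cells with median centring (log2 change -1.39, adjusted p = 0.0579 from limma) and without a filter (-1.50, adjusted p = 0.0608), and in SKOV3 cells without a filter (-2.01, adjusted p = 0.0593). Leaving out single arrays, its change lay between -1.68 and -1.33 for MDAH and between -2.27 and -1.74 for SKOV3 cells. For sh-SFPQ#3 against sh-SFPQ#2, 2 member probes passed with normexp (LRRC70 and ZDHHC11 on A_21_P0012878), 1 with the filter for all 8 arrays and 1 with the trend (LRRC70 in both), beside 4.25%, 6.18% and 4.6% of all probes.

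Among relatives in MDAH cells, where 1 passed as reported, 5 passed with normexp, 0 without a filter, 2 with the filter for all 8 arrays, 2 with the trend, 2 with gene means, and 0 to 4 leaving out single arrays (4 without MDAH sh-SFPQ#2). In SKOV3 cells, where none passed, 2 did with normexp, 1 with the trend (MSR1), 1 with gene means, and 0 to 5 leaving out single arrays (5 without SKOV3 sh-SFPQ#2). Among neighbours in MDAH cells, where 3 passed, 6 did with normexp, 1 without a filter, 1 with the filter for all 8 arrays, 6 with the trend, and 0 to 7 leaving out single arrays (0 without MDAH control 1, 1 without MDAH control 2 and 7 without MDAH sh-SFPQ#2). For the difference between lines 0 to 1 neighbours passed leaving out single arrays (1, ST6GALNAC3, without MDAH sh-SFPQ#2). The methods' t-test gave 11 relatives and 5 neighbours in MDAH cells and 6 and 3 in SKOV3 cells without adjustment, where 12.3% and 11.3% of all probes passed, and 0 relatives and 0 neighbours in MDAH cells after Benjamini-Hochberg. Of all probes, 4.5% (MDAH) and 2.59% (SKOV3) passed with normexp, 3.8% and 2.55% with the trend, 0.688% and 0.182% without a filter and 1.89% and 1.5% with the filter for all 8 arrays; of all genes, 2.29% and 1.18% passed with gene means. Without MDAH sh-SFPQ#2, 6.51% of all probes passed in MDAH cells, and without SKOV3 sh-SFPQ#2, 3.94% in SKOV3 cells. Each fit without an array left 1 array in its group. Without MDAH control 1 or without MDAH control 2, far fewer of all probes passed in MDAH cells than in the fit of all arrays. Without MDAH sh-SFPQ#2 more of all probes passed for the difference between lines. The list counts of those fits moved the same way as the counts of all probes. The cause of these shifts was not tested, beside the fewer or more probes that the filters let in.

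The controls share only a number between the lines, while silenced arrays of the same number carry the same hairpin. The difference between same-numbered arrays correlated between the lines with r = 0.0706 for the controls and 0.350 for the shRNAs over 29021 probes. With the replicate number as a block, with 5.15% and 3.77% of all probes passing, 5 relatives passed in MDAH cells (ZDHHC14, DCDC2, MSR1, BDH1 and SYCE2), 5 in SKOV3 cells (SULT6B1, ZDHHC14, MSR1, BDH2 and RNF212) and 1 neighbour in SKOV3 cells (NBEA), named after their values were seen. Genes with few arrays above background have the least certain values, and the filter decides which of them are adjusted for.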
